A study of Rattus norvegicus with 100 samples.

Results

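The 9 genes described here encode transporters of the hepatocyte membrane: 7 of the canalicular face, which borders bile (Abcc2, Abcb11, Abcb4, Abcb1a, Abcg2, Abcg5 and Abcg8), and 2 of the basolateral face, which borders blood (Abcc3 and Slc10a1). They were picked around the lower level of Abcc2 at 1 µM GW7647 and 24 h in these same arrays, out of 13439 genes that have a probe set with a single symbol. Each gene was read from the probe set with that symbol and the highest mean over all arrays. Of the 9 genes, 7 passed the filter for testing (3 or more arrays with a log2 value over 5), which 8843 genes passed in all. Abcg5 and Abcg8 did not.

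Primary rat hepatocytes, cells taken from the liver and kept in culture, received GW7647, a synthetic agonist of the nuclear receptor PPARα, at 0.001, 0.01, 0.1, 1 or 10 µM, or none (0 µM), for 2, 6, 12, 24 or 72 h. The donors were 4 rats, named Rs627, Rs628, Rs631 and Rs632. Every one of the 100 arrays held RNA of 1 culture of 1 rat, so that the 30 groups of time and concentration had 2 to 4 arrays. All cultures, those at 0 µM included, grew on collagen IV under a layer of Geltrex in William E medium with a maintenance cocktail. Strain, sex and age of the rats, and whether the 0 µM cultures received the solvent, are not given in the sources used here.

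Hepatocytes take bile acids and drugs from blood and secrete them, often after conjugation, into the canaliculus. Slc10a1 (NTCP) carries conjugated bile acids in with sodium, and Abcb11 (the bile salt export pump) pumps them out. Abcc2 (MRP2) exports bilirubin glucuronides, glutathione conjugates and many drug conjugates into bile, while its relative Abcc3 (MRP3) exports glucuronides back into blood. Abcb4 turns phosphatidylcholine over into the canalicular leaflet, Abcb1a (a P-glycoprotein) and Abcg2 (BCRP) expel drugs, and Abcg5 and Abcg8 form one heterodimer that exports sterols. PPARα binds DNA with RXR at repeats of the motif AGGTCA that are spaced by 1 base.

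The genes lie, on the GRCr8 assembly of RefSeq, at chr1:252613875-252672459 (Abcc2), chr10:79793571-79839528 (Abcc3), chr3:74424620-74520646 (Abcb11), chr4:26106895-26164440 (Abcb4), chr4:26312403-26488456 (Abcb1a), chr4:89006056-89132915 (Abcg2), chr6:15717936-15743376 (Abcg5), chr6:15698448-15717730 (Abcg8) and chr6:106344319-106357944 (Slc10a1). RefSeq promoter windows, from 250 bases before to 50 after an annotated start, were held for 7 of the 9. None was held for Abcc3 and Abcb11, so these were not searched. The windows of Abcc2 and Abcb1a, both lower under GW7647, and of Slc10a1, higher under it, are printed 5′ to 3′ on the gene's strand, with AGGTCA or its complement TGACCT in capitals. They span chr1:252613625-252613924 (plus strand), chr4:26397599-26397898 (minus strand, a start inside the gene's span) and chr6:106357895-106358194 (minus strand).
Abcc2: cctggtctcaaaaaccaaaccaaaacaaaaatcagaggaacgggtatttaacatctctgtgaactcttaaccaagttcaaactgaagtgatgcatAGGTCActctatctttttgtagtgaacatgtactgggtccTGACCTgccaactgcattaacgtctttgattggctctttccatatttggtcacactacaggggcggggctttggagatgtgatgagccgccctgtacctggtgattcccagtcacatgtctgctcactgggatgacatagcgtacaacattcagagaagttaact
Abcb1a: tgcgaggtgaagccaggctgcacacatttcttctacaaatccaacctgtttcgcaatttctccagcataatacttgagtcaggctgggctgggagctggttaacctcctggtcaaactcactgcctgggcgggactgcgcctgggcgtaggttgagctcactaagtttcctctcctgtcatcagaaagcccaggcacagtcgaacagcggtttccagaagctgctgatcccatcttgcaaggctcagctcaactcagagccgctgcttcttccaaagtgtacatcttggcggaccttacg
Slc10a1: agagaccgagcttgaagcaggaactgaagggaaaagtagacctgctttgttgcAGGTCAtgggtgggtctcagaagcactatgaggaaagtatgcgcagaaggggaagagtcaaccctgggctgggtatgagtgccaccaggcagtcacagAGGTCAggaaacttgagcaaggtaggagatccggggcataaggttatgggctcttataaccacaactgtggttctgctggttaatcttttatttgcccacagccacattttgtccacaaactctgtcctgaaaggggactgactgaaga
Abcc2 held AGGTCA at −155 on its own strand and at −115 on the other, and Slc10a1 at −197 and −99 on its own strand, counted from the start to the first base of the motif. None of the other 5 windows held the motif. On either strand it was present in 16.2% of the 33469 promoter windows of the table. The repeat AGGTCANAGGTCA was present in 0.0538% of them and in none of the 7. The windows of Abcg5 and Abcg8 overlap on opposite strands. These matches describe letters in the windows and are no evidence of binding.

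Some arrays stood apart. In 5 arrays the 75th percentile of the log2 values was under 6.6 (range of all arrays 6.42 to 7.27); at 24 h these were the 1 µM arrays of Rs631 and Rs632 and the 10 µM array of Rs631, at 6 h the 10 µM array of Rs627, and at 2 h the 0.1 µM array of Rs631. None was a 72 h array, but some 72 h arrays lay just over this bound, the lowest at 6.634. At 72 h the group means of this percentile were 6.83, 6.73, 6.79, 6.9 and 6.94 from 0.001 to 10 µM, against 6.98 at 0 µM. The 0 µM, 12 h array labelled Rs627 correlated in its deviations from the group means at a median of −0.02 with other arrays of Rs627 and 0.77 with those of Rs628, and the one labelled Rs628 at −0.22 with Rs628 and 0.51 with Rs627. Results at 12 h are therefore given with and without these 2 arrays. Without them the 0 µM, 12 h group is the single array of Rs631, which is then assumed to vary like the other groups, so a call lost there is no check of the result. The cells carried hepatocyte transcripts: 15 of 15 hepatocyte markers with a probe set passed the filter. At 72 h their summed linear levels were 52300 to 59700 at 1 µM and 48100 to 56500 at 10 µM, against 66600 to 69800 at 0 µM, without overlap. The summed linear levels of 13 stellate cell and fibroblast markers were 785 to 1560 at 1 µM and 615 to 1460 at 10 µM, against 1720 to 5230 at 0 µM. Those of 11 macrophage markers were 997 to 1450 at 1 µM and 878 to 1390 at 10 µM, against 963 to 1510 at 0 µM. Those of 7 bile duct markers were 851 to 1340 at 1 µM and 739 to 1340 at 10 µM, against 970 to 2630 at 0 µM. By limma at 1 µM and 72 h, 3 of the 15 hepatocyte markers rose and 5 fell (3 and 7 at 10 µM), 1 of 3 tested macrophage markers rose and 1 fell, 3 of 9 tested stellate cell and fibroblast markers fell, and none passed of 1 tested endothelial and 5 tested bile duct markers. Among all genes tested at 72 h, 11.3% rose and 15.5% fell at 1 µM, and 12.5% rose and 15.6% fell at 10 µM. Ptprc, Clec4f and Csf1r (macrophages) and Col1a1 (fibroblasts) lay under the filter. The actin control, 3′ minus 5′ probe set, was 1.97 at 1 µM and 1.9 at 10 µM, against 1.66 at 0 µM, and the GAPDH control 0.34 and 0.36, against 0.35. The part of these differences in the results that follow was not tested. In RNA of whole cultures, fewer cells of a type and less RNA per cell cannot be told apart.

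Abcc2 had the largest differences of the 7 at 1 and 10 µM at 24 and 72 h, and since the set was chosen on it, its values against 0 µM are given as a description with no test. At 72 h it had 7.5, 7.31, 8.60 and 7.58 at 1 µM and 7.04, 8.11 and 6.89 at 10 µM (Rs628, Rs631 and Rs632), against 10.09, 9.64, 10.66 and 10.26 at 0 µM (log2 values; 4 arrays are in the order Rs627, Rs628, Rs631, Rs632 here and below). All 7 treated arrays lay under all 4 untreated ones, by more than 1 unit on the log2 scale, the highest in each group being Rs631. The log2 change was −2.42 ± 0.37 at 1 µM (SE of the model), a 5.33-fold lower level, and −2.81 ± 0.40 at 10 µM, 7.03-fold lower. Within rats the change ran from −2.68 to −2.06 at 1 µM in 4 of 4 rats and from −3.37 to −2.55 at 10 µM in 3 of 3.

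At 24 and 72 h the mean of Abcc2 was lower with each step in concentration. At 72 h the means were 10.16 ± 0.42 at 0 µM (SD, n = 4), 10.11 ± 0.64 at 0.001 µM (n = 4), 9.54 ± 0.54 at 0.01 µM (n = 4), 8.79 ± 0.73 at 0.1 µM (n = 3), 7.75 ± 0.58 at 1 µM (n = 4) and 7.35 ± 0.67 at 10 µM (n = 3). The means at 0 and 0.001 µM differed by less than the SD between rats, and so did those at 1 and 10 µM, whereas at 0.1 µM and above no array reached those of 0 µM. At 0.01 µM the array of each of the 4 rats was lower than its own 0 µM array, by −0.79 to −0.41, although the groups overlapped. The median change over all genes in this 72 h comparison was −0.14, and its part in these values was not tested. At 24 h the order was the same, with 10.54 ± 0.40 at 0 µM, 10.21 ± 0.57 at 0.001 µM, 9.82 ± 0.58 at 0.01 µM, 8.97 ± 0.64 at 0.1 µM, 8.13 ± 0.72 at 1 µM and 8.04 ± 0.85 at 10 µM. At 12 h the means were 9.58 ± 0.49 at 1 µM and 9.33 ± 0.63 at 10 µM, against 10.48 ± 0.51 at 0 µM, and arrays overlapped. The log2 changes were −0.90 and −1.15, and −1.42 and −1.66 against the single Rs631 array that is left without the 2 doubtful ones. Rs631 was the highest rat for Abcc2 in 28 of 28 groups, so the latter values also hold the offset of this rat. Within Rs631 the 12 h level was 10.20 at 1 µM and 10.04 at 10 µM, against 10.99 at 0 µM. By the rat labels Abcc2 was lower at 12 h in 3 of 3 rats at 1 µM and 2 of 2 at 10 µM. At 6 h the means were 10.16 and 10.35, against 10.53, and at 2 h 10.49 and 10.47, against 10.65, differences under the spread between rats. Within rats, however, the 6 h level was lower in 4 of 4 at 1 µM, by −0.44 to −0.22, and in 3 of 3 at 10 µM, by −0.43 to −0.29. The 6 h means ran from 10.89 at 0.001 µM to 10.16 at 1 µM. At 2 h the differences within rats lay between −0.09 and 0.09.

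**Figure D1:**
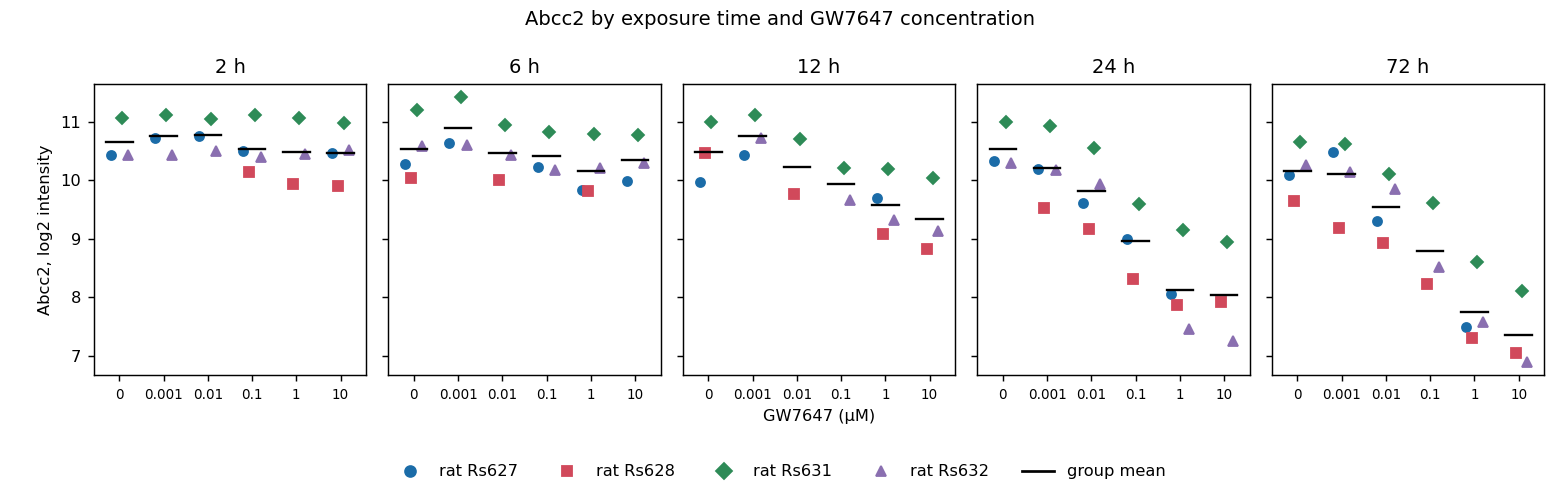
Log2 level of Abcc2 by GW7647 concentration (µM, 0 to 10) in 1 panel per time, with 1 point per array, coloured by rat, and a short bar at each group mean. The means drop with concentration at 24 and 72 h, where the arrays at 0.1 µM and above lie under those at 0 µM, whereas at 2 and 6 h the arrays of all concentrations overlap those at 0 µM.

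Abcb1a and Abcc3 followed Abcc2 downward, Abcb11 and Slc10a1 went the other way, and Abcg2 did neither. At 72 h the test (limma, Benjamini-Hochberg adjusted over the 8843 genes, two-sided, 0.05) was passed at 1 µM by 4 of the 6 tested transporters other than Abcc2, 2 higher and 2 lower, with 11.3% of all genes called higher and 15.5% lower. At 10 µM it was passed by 3 of 6, 1 higher and 2 lower, with 12.5% of all genes called higher and 15.6% lower. With the rat as a block, which the labels' rat identity supports, the counts were 2 higher and 3 lower of 6 at both concentrations, with 16.3% of all genes higher and 24% lower at 1 µM, and 17.1% and 24% at 10 µM. Beside that background nothing is read from the share of 6 transporters called, and what follows is about each gene.

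**Figure D2:**
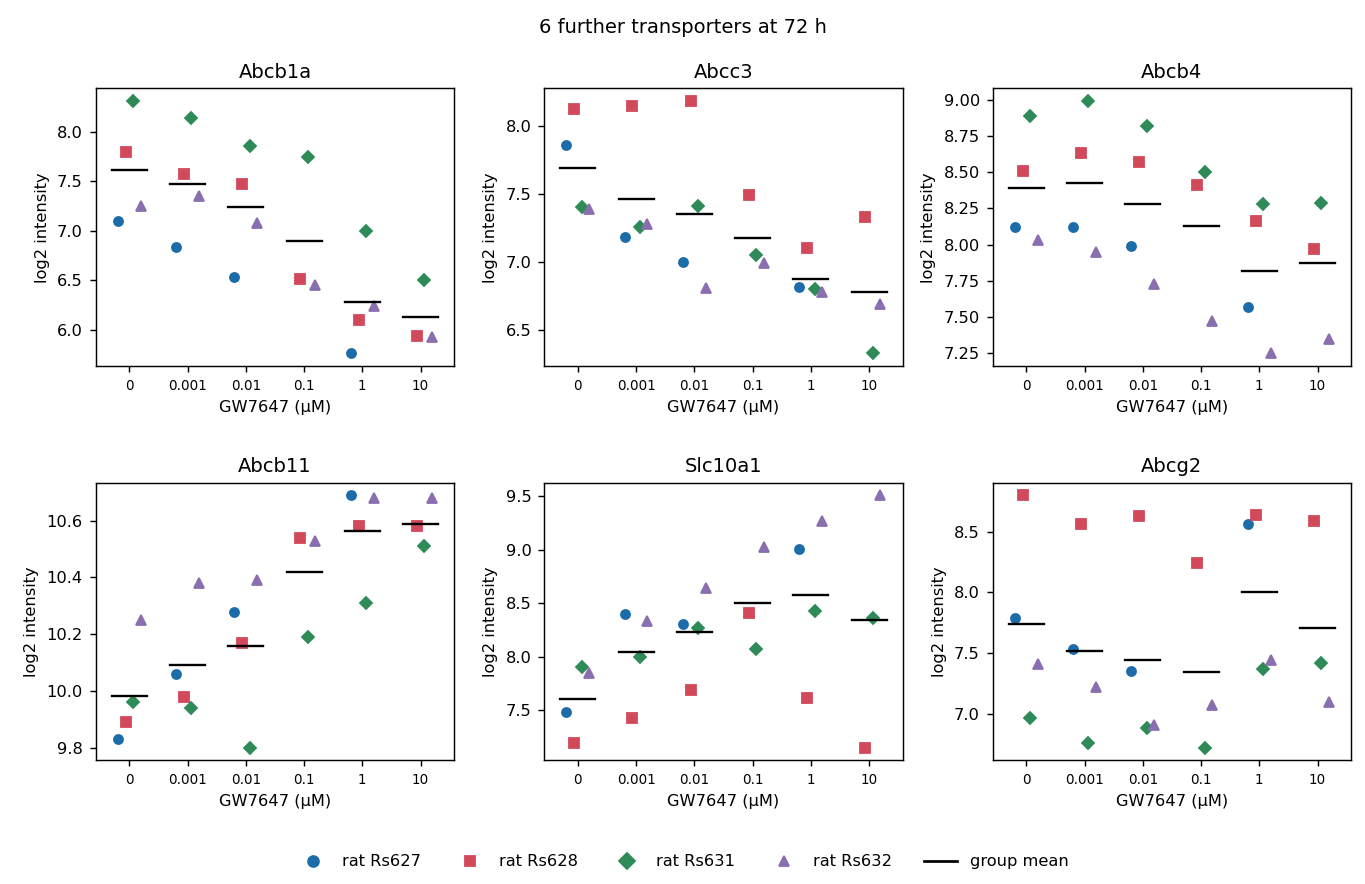
Log2 level at 72 h by GW7647 concentration (µM) for the 6 tested transporters other than Abcc2, with 1 point per array, coloured by rat. Abcb1a and Abcc3 at 1 µM lie under, and Abcb11 above, all 4 arrays at 0 µM.

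Abcb1a, the drug efflux pump, had 5.76, 6.10, 7.0 and 6.24 at 1 µM and 5.94, 6.50 and 5.93 at 10 µM (Rs628, Rs631 and Rs632), against 7.10, 7.79, 8.31 and 7.25 at 0 µM. The treated arrays did not reach the untreated ones, and Rs631 was again the highest in each group. It fell by 1.34 ± 0.42 on the log2 scale at 1 µM (2.52-fold lower; limma adjusted p = 0.0126) and by 1.49 ± 0.46 at 10 µM (2.81-fold lower; adjusted p = 0.00915), lower in 4 of 4 and 3 of 3 rats. The change within rats ran from −1.69 to −1.01 at 1 µM and from −1.85 to −1.32 at 10 µM. With the rat as a block and all rats kept, Abcb1a passed at both concentrations. The fits that left out a rat had no rat term, and either call was lost in some of them. At 1 µM the adjusted p was 0.0661 without Rs627 and 0.107 without Rs628, and at 10 µM 0.112 without Rs628. The change itself then stayed between −1.45 and −1.22 at 1 µM and between −1.66 and −1.34 at 10 µM, whichever rat was left out. At 0.1 µM the change was −0.71 (adjusted p = 0.338; blocked by rat, −0.84 with adjusted p = 0.00434). A further probe set of Abcb1a averaged 7.56 at 0 µM, 7.31, 7.16 and 7.01 at 0.001, 0.01 and 0.1 µM, 6.27 at 1 µM and 6.02 at 10 µM. A probe set shared by Abcb1a and its near copy Abcb1b, which it cannot tell apart, averaged 8.35 at 1 µM and 7.77 at 10 µM, against 10.87 at 0 µM.

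Abcc3, the basolateral exporter of glucuronides, had 6.82, 7.10, 6.8 and 6.78 at 1 µM and 7.33, 6.33 and 6.69 at 10 µM (Rs628, Rs631 and Rs632), against 7.86, 8.12, 7.40 and 7.39 at 0 µM. Its treated and untreated arrays were separate as well, if narrowly at 10 µM, where Rs628 was the highest. It fell by 0.82 ± 0.28 at 1 µM (1.76-fold lower; adjusted p = 0.0233) and by 0.91 ± 0.31 at 10 µM (1.87-fold lower; adjusted p = 0.0186), lower in every rat with both arrays (4 and 3). The change within rats ran from −1.04 to −0.6 at 1 µM and from −1.07 to −0.7 at 10 µM. With the rat as a block and all rats kept, Abcc3 passed at both concentrations. Again with no rat term, the call at 1 µM was lost without Rs627 (adjusted p = 0.151) or Rs632 (0.101). That at 10 µM was lost without Rs627 (0.0751), Rs631 (0.123) or Rs632 (0.121). At 0.1 µM the change was −0.52 (adjusted p = 0.299; blocked by rat, −0.50 with adjusted p = 0.0455).

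Abcb4, the phospholipid transporter, had 7.57, 8.16, 8.28 and 7.25 at 1 µM and 7.97, 8.29 and 7.35 at 10 µM (Rs628, Rs631 and Rs632), against 8.12, 8.51, 8.89 and 8.03 at 0 µM. The groups overlapped, but each rat's treated array was lower than its own untreated one, by −0.78 to −0.35 at 1 µM. The changes of −0.57 ± 0.31 at 1 µM (adjusted p = 0.169) and −0.52 at 10 µM (adjusted p = 0.26) did not pass without the block. With the rat as a block they were −0.57 (adjusted p = 0.000451) and −0.58 (adjusted p = 0.000916), and both passed.

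Abcb11, the bile salt export pump, had 10.69, 10.58, 10.31 and 10.68 at 1 µM and 10.58, 10.51 and 10.68 at 10 µM (Rs628, Rs631 and Rs632), against 9.83, 9.89, 9.96 and 10.25 at 0 µM. All treated arrays lay above all untreated ones. It rose by 0.58 ± 0.13 at 1 µM (1.5-fold; adjusted p = 0.00043) and by 0.61 ± 0.14 at 10 µM (1.52-fold; adjusted p = 0.000682), in 4 of 4 and 3 of 3 rats. Both calls held when any 1 rat was left out, with adjusted p at most 0.0444 and 0.0158. At 0.1 µM it rose by 0.44 ± 0.14 (adjusted p = 0.0423, in a comparison with 8.82% of genes called), a call that was lost without Rs627, Rs628 or Rs632 (adjusted p up to 0.235). The 72 h means were 9.98 ± 0.19 at 0 µM, 10.09 ± 0.20 at 0.001 µM, 10.16 ± 0.26 at 0.01 µM, 10.42 ± 0.20 at 0.1 µM, 10.56 ± 0.18 at 1 µM and 10.59 ± 0.09 at 10 µM, with n as for Abcc2.

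Slc10a1, the bile acid uptake carrier, had 9.01, 7.61, 8.43 and 9.27 at 1 µM and 7.15, 8.36 and 9.51 at 10 µM (Rs628, Rs631 and Rs632), against 7.48, 7.19, 7.90 and 7.85 at 0 µM. The groups overlapped through Rs628, the lowest rat in each. It rose by 0.97 ± 0.33 at 1 µM (1.97-fold; adjusted p = 0.0182), higher in 4 of 4 rats by 0.42 to 1.53, but not without Rs627 (adjusted p = 0.198), Rs631 (0.0609) or Rs632 (0.112). The change of 0.74 ± 0.35 at 10 µM did not pass (adjusted p = 0.11), with Rs628 at −0.04, and with the rat as a block it was 0.80 (adjusted p = 0.00946). At 0.1 µM, with arrays at 8.07 to 9.03, the change was 0.90 (adjusted p = 0.0955; blocked by rat, 0.96 with adjusted p = 0.00372). The means were 7.60 ± 0.33 at 0 µM, 8.04 ± 0.44 at 0.001 µM, 8.23 ± 0.39 at 0.01 µM, 8.50 ± 0.49 at 0.1 µM, 8.58 ± 0.74 at 1 µM and 8.34 ± 1.18 at 10 µM, so that the spread between rats grew at the highest concentrations.

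Abcg2 had 8.56, 8.64, 7.37 and 7.44 at 1 µM and 8.59, 7.42 and 7.10 at 10 µM (Rs628, Rs631 and Rs632), against 7.79, 8.80, 6.96 and 7.41 at 0 µM. The rats differed more than the concentrations did, and the changes of 0.26 at 1 µM (adjusted p = 0.762) and −0.04 at 10 µM (adjusted p = 0.973) did not pass. Abcg5 stayed at 2.80 to 4.82 and Abcg8 at 2.58 to 3.58 in all 100 arrays, under the log2 value of 5 that was taken as the floor, so no fold is given for the sterol exporter.

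**Figure D3:**
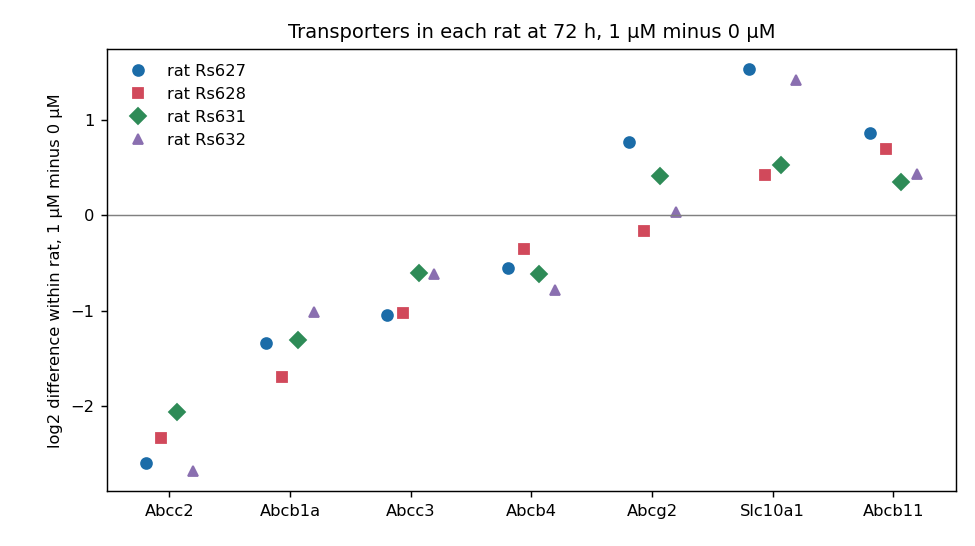
Difference between the 1 µM and the 0 µM array of the same rat at 72 h (log2, vertical axis) for 7 transporters, with 1 point per rat. All 4 rats are under 0 for Abcc2, Abcb1a, Abcc3 and Abcb4, and above 0 for Abcb11 and Slc10a1.

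The earlier times show when these differences passed the test. Of the 6 transporters other than Abcc2, none passed at 1 µM at 2 h or 6 h by limma, where 0.373% and 2.04% of all genes were called, and none had an unadjusted p under 0.05 at 6 h. With the rat as a block none of the 6 passed at 6 h either, with 4.7% of genes called. Within rats at 6 h and 1 µM, Abcb1a (−0.35 to −0.12) and Abcc3 (−0.44 to −0.07) were nevertheless lower in 4 of 4. Abcb11 (0.07 to 0.32), Abcb4 (0.11 to 0.3) and Abcg2 (0.1 to 0.72) were higher in 4 of 4, and Slc10a1 was lower in 3 of 4. At 10 µM Abcb1a was lower and Abcb11 higher in 3 of 3, and the rest were mixed. At 12 h 1 of 6 passed, with 5.41% of genes called. This was Abcb11, with 10.56, 10.45, 10.47 and 10.76 at 1 µM, against 9.98, 10.35 and 9.98 at 0 µM (Rs627, Rs628 and Rs631), groups that did not overlap. It rose by 0.46 ± 0.14 (adjusted p = 0.0447), and against the single Rs631 array left without the 2 doubtful ones the change was 0.58 (adjusted p = 0.238). Rs631 was the lowest rat for Abcb11 in 19 of 28 groups. At 10 µM and 12 h Abcb11 was again the 1 gene of 6 past the threshold (7.95% of genes called), higher by 0.51 ± 0.15 (adjusted p = 0.0258; 0.63 and 0.13 against the single Rs631 array), and the call was lost without Rs627, Rs631 or Rs632 (adjusted p up to 0.201).

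Abcb1a and Abcg2 passed at 12 h with the rat as a block, under which 11.3% of genes were called at 1 µM and 16.5% at 10 µM, and not without it. Values without the 2 doubtful arrays rest on 1 untreated array here too. Abcb1a changed by −1.14 at 10 µM (adjusted p = 0.164; −1.14 and 0.000355 with the block, −1.07 and 0.0284 with the block and without the 2 arrays). At 1 µM it changed by −1.08 (adjusted p = 0.212; −0.95 and 0.00198 with the block, −0.87 and 0.131 with the block and without the 2 arrays). Abcg2 changed by 0.70 at 10 µM (adjusted p = 0.56; 0.95 and 0.00324 with the block, 0.82 and 0.109 with the block and without the 2 arrays). At 1 µM it changed by 0.57 (adjusted p = 0.772; 0.73 and 0.0239 with the block, 0.61 and 0.374 with the block and without them).

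The 1 µM, 24 h values come from the comparison that picked the set and are described only. There 1 transporter of 6 was past the threshold upward and 2 downward, with 7.06% of genes called higher and 22.6% lower, from which nothing is read. Abcb1a had 5.63, 6.26, 7.24 and 5.40 at 1 µM, against 7.23, 8.50 and 7.17 at 0 µM (Rs627, Rs631 and Rs632), a log2 change of −1.5. Abcc3 had 6.38, 7.38, 5.89 and 5.99, against 7.18, 7.28 and 7.59, and its change of −0.94 was −0.47 without the arrays of low signal. That setting drops the 1 µM arrays of Rs631 and Rs632 and keeps their 0 µM arrays. It also keeps Rs628, which has no 0 µM array at 24 h and was highest for Abcc3 in 17 of 20 groups. Within rats Abcc3 was lower in 3 of 3, by −1.6 to −0.8. The median change over all genes was −0.23 at this time and concentration, against −0.06 at 72 h.

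The 10 µM, 24 h arrays share their 0 µM arrays with that comparison. Abcb11 had 10.79, 10.65 and 11.19 (Rs628, Rs631 and Rs632), against 10.27, 10.14 and 10.35 at 0 µM, without overlap, and rose by 0.62 ± 0.15 (1.54-fold; adjusted p = 0.00202), with adjusted p at most 0.0404 when any 1 rat was left out. It was the only one of the 6 past the threshold, with 6.43% of genes called higher and 10.7% lower. With the rat as a block, under which 11% of genes were higher and 23.1% lower, Abcb1a (−1.27, adjusted p = 3.09e-05), Abcc3 (−0.93, adjusted p = 0.000213) and Abcb4 (−0.52, adjusted p = 0.00834) also passed, against −1.11 (0.113), −0.80 (0.0808) and −0.43 (0.461) without it. Without the arrays of low signal Abcb1a passed as well (−1.58, adjusted p = 0.0258), but the rats are then unbalanced. That fit leaves out the 10 µM array of Rs631, the highest rat for Abcb1a in 27 of 28 groups, and keeps its 0 µM array. Within the 2 rats with both arrays Abcb1a changed by −1.47 and −1.03.

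Whether the 1 µM change at 72 h differed from that at 6 h was tested as an interaction, Abcc2 left out. None of the 6 passed (5.35% of genes did, by limma), and 2 of 6 had an unadjusted p under 0.05. The difference of the log2 changes was 1.16 ± 0.46 for Slc10a1 (adjusted p = 0.144), 0.40 ± 0.19 for Abcb11 (0.26), −1.07 ± 0.60 for Abcb1a (0.39) and −0.76 ± 0.43 for Abcb4 (0.409). With the rat as a block, under which 16.1% of genes passed, all 4 did, with adjusted p = 0.0105, 0.0237, 0.00706 and 0.00309 in that order. For Abcc3 and Abcg2 they were −0.61 and −0.15, and did not pass with the block either.

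**Figure D4:**
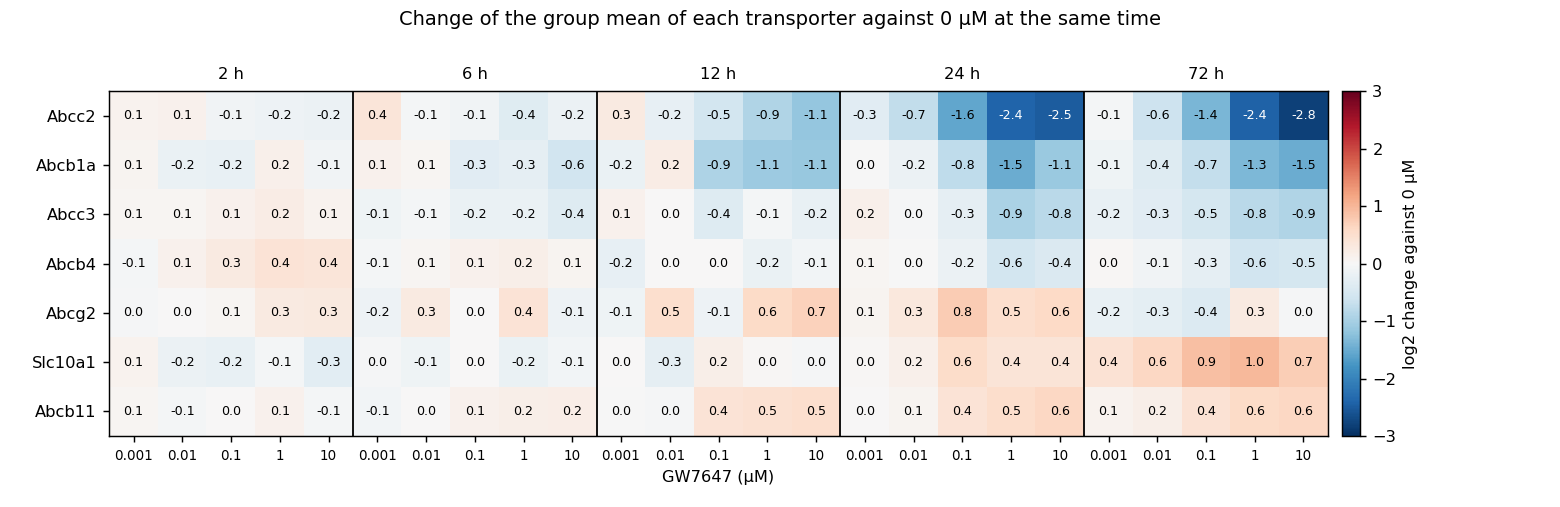
Log2 change against 0 µM at the same time for 7 transporters (rows) at each time and concentration (columns), as a colour scale from lower to higher. Abcc2, Abcb1a and Abcc3 are lower and Abcb11 higher at 24 and 72 h at 0.1 µM and above, and changes at 2 and 6 h lie between −0.58 and 0.42.

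Averaged over the 5 times, the lowest concentrations gave no call. At 0.001 µM none of the 6 and 0% of all genes passed by limma (20 genes and 0 transporters at unadjusted p under 0.05), and at 0.01 µM none of the 6 and 0.69% of genes did (0 transporters at unadjusted p under 0.05). At 0.1 µM 1 of 6 passed, with 14.3% of genes called: Abcb11 rose by 0.28 ± 0.07 (adjusted p = 0.00234; 0.0995 without Rs627), and Abcb1a, at −0.59, had adjusted p = 0.0528 (−0.65 and 1.84e-06 with the rat as a block). At 10 µM 3 of 6 passed, with 39.4% of genes called. Abcb11 rose by 0.38 ± 0.07 (adjusted p = 3.07e-06), Abcb1a fell by 0.88 ± 0.21 (adjusted p = 0.000449) and Abcc3 fell by 0.44 ± 0.14 (adjusted p = 0.00877). The call of Abcc3 was lost without Rs627 (adjusted p = 0.154), Rs631 (0.0755) or Rs632 (0.125), and with the block Abcg2 also passed (0.31, adjusted p = 0.0108). All of these averages share the 0 µM arrays, those of 24 h included.

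The 2 highest concentrations were compared over the 5 times, which uses no 0 µM array but does use the 1 µM, 24 h arrays on which the set was picked, so Abcc2 is left out. None of the other 6 transporters and 0% of genes passed for 10 µM against 1 µM (limma; 98 genes and 0 transporters at unadjusted p under 0.05). The 95% interval of the difference ran from −0.49 to 0.33 for Abcb1a, −0.36 to 0.19 for Abcc3, −0.26 to 0.33 for Abcb4, −0.12 to 0.13 for Abcb11, −0.40 to 0.22 for Slc10a1 and −0.61 to 0.36 for Abcg2. The interval was narrowest for Abcb11 and widest for Abcg2.

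In untreated culture none of the 7 transporters passed for 72 h against 2 h, with 3.4% of genes called (limma; 0 transporters at unadjusted p under 0.05), and none with the rat as a block. Abcc2 changed by −0.48 ± 0.40 (adjusted p = 0.539) and Abcb11 by −0.24 (adjusted p = 0.374). The rats differed throughout. Among groups of at least 3 arrays, Abcc2 was highest in Rs631 in 28 of the 28 that held this rat, with 10.66 to 11.20 at 0 µM, against 9.97 to 10.44 in Rs627, 9.64 to 10.47 in Rs628 and 10.26 to 10.59 in Rs632. Abcb4 and Abcb1a were also highest in Rs631, each in 27 of 28 groups. For Abcc3 and Abcb11 the same rat was the lowest in 19 of 28 groups, and for Abcg2 in 18 of 28. Abcg2 was highest in Rs628 in 18 of 20 groups, and Abcc3 in 17 of 20.

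Among genes around the transporters, the response to the agent itself was plain: all 7 tested PPARα target genes of the list rose at 72 h and 1 µM, such as Ehhadh (4.82) and Cpt1a (1.75), enzymes of fatty acid oxidation. Of the receptors and factors that act on transporter genes, 8 rose and 2 fell of 14 tested at 1 µM and 7 and 2 at 10 µM, with a median change of 0.43 at 1 µM. Over all genes 11.3% rose and 15.5% fell at 1 µM and 12.5% and 15.6% at 10 µM, with a median change of −0.06 at 1 µM. Nr1i3 (CAR, a xenobiotic receptor) had 6.58 to 7.76 at 1 µM, against 4.16 to 5.28 at 0 µM, where some arrays lie at or under the floor of 5, and rose by 2.57 ± 0.42 (adjusted p = 1.28e-06). Nr1i2 (PXR, the other such receptor) rose by 1.06 ± 0.24 (adjusted p = 0.000344). Nr1h4 (FXR, the bile acid receptor) had 9.09 to 10.35, against 7.96 to 9.05, and rose by 1.14 ± 0.27 (adjusted p = 0.000553). Nfe2l2 (NRF2) had 9.60 to 10.04, against 10.31 to 10.59, and fell by 0.68 ± 0.14 (adjusted p = 0.000121), and Foxa2 fell by 0.55 ± 0.11 (adjusted p = 3.69e-05). Hnf4a, at 0.22, did not pass (adjusted p = 0.472). Whether any of these receptors and factors has a part in the changes of the transporters was not tested.

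Of the genes of the canalicular scaffold and of vesicle trafficking, 1 rose and 10 fell of 16 tested at either concentration, with 15.5% of all genes lower at 1 µM and 15.6% at 10 µM. Their median change was −0.54 at 1 µM, against −0.06 over all genes. Nherf1 (a PDZ scaffold that binds transporters at the membrane) fell by 1.05 ± 0.11 (2.07-fold; adjusted p = 9.82e-12), and Rab11fip5 (an effector of recycling endosomes) by 1.61 ± 0.37 (adjusted p = 0.000454). Tjp1 (ZO-1, of the tight junction) fell by 0.82 ± 0.14 (adjusted p = 5.49e-06), Cldn2 by 1.10 ± 0.30 (adjusted p = 0.00317) and Rab11a by 0.27 ± 0.07 (adjusted p = 0.000863). Myo5b, the motor that carries Rab11 vesicles, was the 1 that rose, by 1.72 ± 0.22 (3.28-fold; adjusted p = 1.79e-09). Vim (vimentin, of mesenchymal cells) fell by 1.71 ± 0.46 (adjusted p = 0.0028), 1 of 3 stellate cell and fibroblast markers lower of 9 tested, and whether such cells share in the values of this list was not tested.

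**Figure D5:**
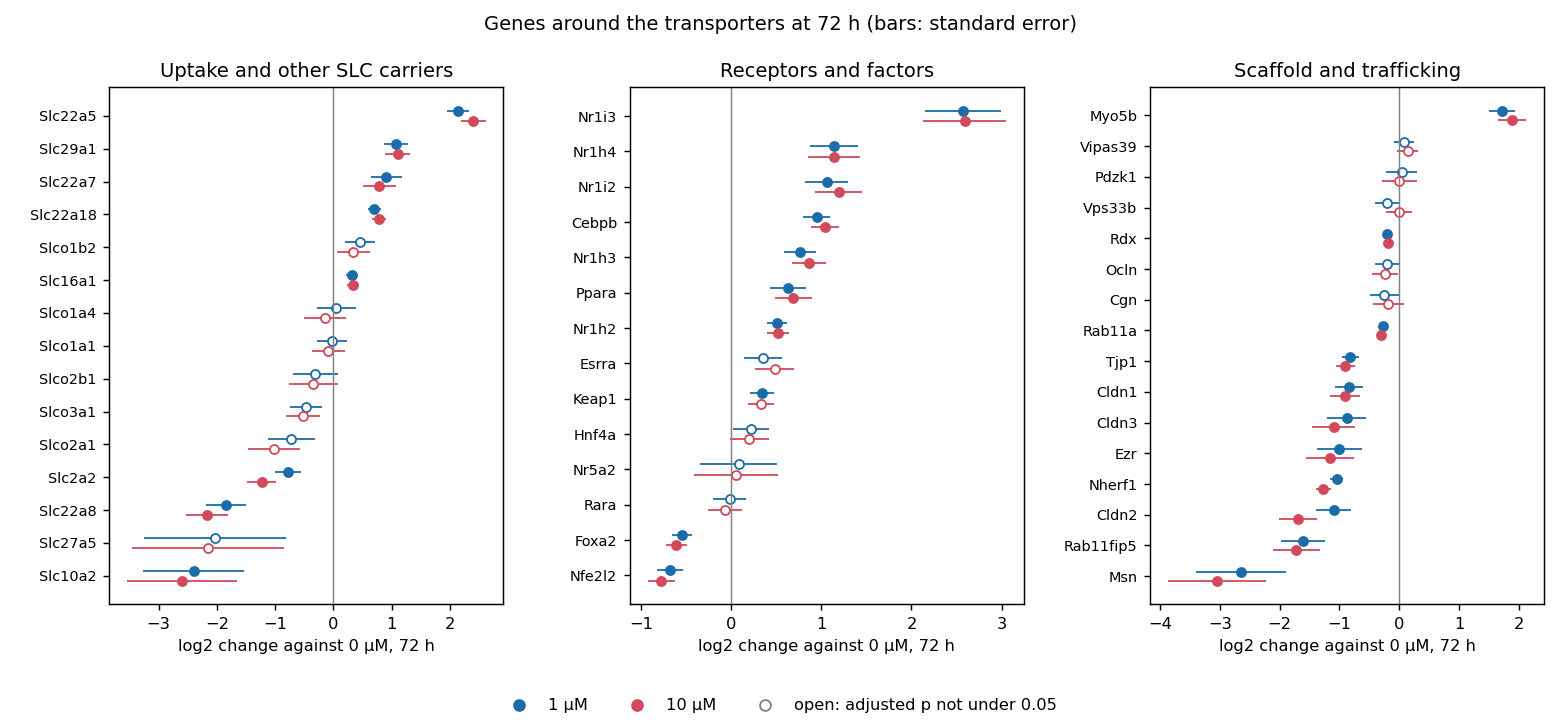
Log2 change at 72 h of each tested gene in 3 lists (SLC carriers, receptors and factors, scaffold and trafficking), at 1 and 10 µM against 0 µM, with the SE of the model as bars and filled points for adjusted p under 0.05. Of the genes past the threshold at 1 µM, 8 receptors and factors lie to the right of 0 and 2 to the left, 1 scaffold gene to the right and 10 to the left, and 5 carriers to the right and 3 to the left.

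Other transporters were divided. Of the SLC carriers of drugs, bile acids and anions, 5 rose and 3 fell of 15 tested at either concentration, with 11.3% of all genes higher and 15.5% lower at 1 µM and 12.5% and 15.6% at 10 µM. Their median change was −0.02 at 1 µM. Slc22a5 (OCTN2, the carnitine carrier) had 9.07 to 9.82 at 1 µM, against 7.25 to 7.51 at 0 µM, and rose by 2.13 ± 0.19 (4.36-fold; adjusted p = 8.61e-15). Slc29a1 (ENT1, a nucleoside carrier) rose by 1.07 ± 0.21 (adjusted p = 2.86e-05), Slc22a7 (OAT2) by 0.91 ± 0.26 (adjusted p = 0.0053), Slc22a18 by 0.70 ± 0.11 (adjusted p = 2.48e-07) and Slc16a1 (MCT1, of lactate) by 0.31 ± 0.09 (adjusted p = 0.00383). Slc22a8 (OAT3, an organic anion carrier) had 7.46 to 7.86, against 8.79 to 10.57, and fell by 1.84 ± 0.34 (3.59-fold; adjusted p = 1.04e-05). The sinusoidal carriers Slco1a1 (−0.02, adjusted p = 0.972), Slco1a4 (0.05, 0.941) and Slco1b2 (0.46, 0.199) did not pass.

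Of the further ABC exporters, 1 rose and 2 fell of 8 tested at 1 µM, and 2 rose and 1 fell at 10 µM, beside the same shares of all genes. Abcd3, which carries fatty acids into peroxisomes, had 11.52 to 11.63 at 1 µM, against 9.74 to 10.57 at 0 µM, and rose by 1.42 ± 0.15 (2.67-fold; adjusted p = 5.99e-12). Abcc4 (MRP4, a basolateral exporter) had 4.09 to 5.52, with some arrays at or under 5, against 5.63 to 6.39, and fell by 1.16 ± 0.30 (adjusted p = 0.00185). Abcc1 (MRP1) fell by 0.60 ± 0.23 at 1 µM (adjusted p = 0.0417), and its −0.52 at 10 µM did not pass (adjusted p = 0.108). Of 9 tested genes of bile acid synthesis and conjugation 2 rose at 1 µM, beside 11.3% of all genes higher, so nothing is read from the count. Slc27a5 of this list had 4.27 to 6.89 at 1 µM, against 6.21 to 9.33 at 0 µM, groups that overlapped. Its means were 6.15 ± 1.26 (SD) at 1 µM and 8.18 ± 1.36 at 0 µM, with the lowest array at 1 µM under the floor of 5. Cyp8b1, which sets the share of cholic acid, rose by 3.28 ± 0.37 (9.74-fold; adjusted p = 2.14e-11). Cyp7a1, the first enzyme of the pathway, was at 0.47 and did not pass (adjusted p = 0.666). Its mean over all arrays was 4.29, under the floor of 5, so nothing is read from this value.

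Across the 30 group means the transporters fell into opposed patterns, given as a description, since the groups share rats and the concentrations share 0 µM arrays. Abcc2 correlated at 0.93 with Abcb1a, 0.89 with Abcc3 and 0.82 with Abcb4, and at −0.81 with Abcb11, −0.71 with Slc10a1 and −0.27 with Abcg2. Abcb11 and Slc10a1 correlated at 0.66. Among all tested genes the patterns most like Abcc2 were those of Cnn3 (r = 0.984), Tmbim1 (0.979), Sult6b2 (0.977), Ptprk (0.976) and Abhd2 (0.975). Those most like Abcb11 were Marchf6 (0.96), Agxt (0.957), Clpx (0.953), Nr1h4 (0.949) and Pex13 (0.949), so that the bile acid receptor was among its 5 nearest. Slc10a1 was nearest to Sult2a6 (0.937), Cyp3a18 (0.936), Azgp1 (0.909), Mat1a (0.903) and Serpinc1 (0.891). Abcb1a was nearest to Cxadr (0.97) and Tmem43 (0.968), Abcc3 to Fkbp11 (0.968) and Smyd2 (0.961), Abcb4 to Gtf2f1 (0.948) and Frmd6 (0.944), and Abcg2 to Mmp14 (0.891) and Sh3glb1 (0.887).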

How the data were processed

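The authors deposited log2 intensities, 1 per probe set and array, from Affymetrix GeneChip arrays hybridised with total RNA that was amplified and labelled with a 3′ IVT Express kit, per the labels' protocols. GCRMA and Partek are named, without version, in the submitters' processing notes, and any genome build is not given in the sources used here. Values were used as deposited (array medians 4.13 to 4.46), and for arrays their number limits the precision.

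Of 31139 probe sets 19069 had 1 gene symbol in the platform annotation, 572 several and 11498 none, and the gene IDs of 18989 probe sets were found in RefSeq. The probe set with the highest mean stood for a gene. Log2 values of 5 or less were taken as a floor, and the 8843 genes over it in 3 or more arrays entered the test. One model of 30 group means (70 residual degrees of freedom) was fitted with limma 3.58.1 in R 4.3.3, with Benjamini-Hochberg adjustment over all genes tested, two-sided, at 0.05, after a check on simulated data. Tables and figures were made with Python 3.11.15 and matplotlib 3.10.9.

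The transporters, gene lists, tests and naming rule were chosen with earlier results of these data known. All 9 transporters are named, with up to 6 listed genes per list past the threshold. Other listed genes past it are counted and not named. Also named are listed genes needed to say what did not pass, and up to 5 genes of the most similar pattern. The rat, taken from the labels' biological replicate, pairs samples: deviations from the group means correlated at a median of 0.62 within rats and −0.23 between them. The model had no rat term, and the rat as a block was an alternative, as were the arrays of the compared times alone, other filters, an intensity trend, quantile normalization, centring, every probe set, the probe set of largest variance, and leaving out each rat, the 5 arrays of low signal, the 23 arrays at positions that recur in the labels, 5 arrays whose label ends in 2 and the 2 doubtful 12 h arrays. The fits that left out a rat had no rat term. The labels do not say whether cultures of a rat share a preparation, so p-values measure only the spread between these samples.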

Additional observations from a re-analysis of the deposited data

Results flagged for a closer look

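In groups of 4 arrays, the highest or lowest array was examined for a gap to its nearest neighbour that is large against the range of the group (Dixon's criterion). Of 108 sets of 4 arrays, 7 held such an array, and chance gives about 1 in 20. Abcc3 in Rs628 was 8.14 at 0.001 µM and 72 h, with the other rats at 7.18 to 7.28, and 7.10 at 1 µM and 72 h, with the others at 6.78 to 6.82. Abcb4 in Rs631 was 9.07 at 1 µM and 12 h, with the others at 8.18 to 8.30. Slc10a1 in Rs628 was 6.42 at 10 µM and 2 h, with the others at 7.84 to 8.13. Abcg5 was 3.49 in Rs627 at 10 µM and 2 h and 3.66 in Rs628 at 1 µM and 6 h, and Abcg8 was 2.92 in Rs628 at 0.001 µM and 72 h, all 3 under the floor of 5.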

How the results depend on the processing

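Counts here are of the 7 tested transporters, Abcc2 included. The set was chosen on Abcc2 and its values against 0 µM are a description, so these counts are no support for its fall. At 1 µM and 12 h the count was 1. It was 4 with the rat as a block, with or without the arrays of low signal. It was 0 with only the arrays of that time, with no filter, with arrays centred on their median, with the probe set of largest variance, without the arrays at recurring positions, without the 2 doubtful 12 h arrays, and with the block but without those 2. For 0.01 µM averaged over times it was 0, against 1 with the block, which was Abcc2, and 1 with the block and without the arrays of low signal. For 0.1 µM averaged it was 2, against 5 with the block and without the 2 doubtful arrays and 4 with the block and without the arrays of low signal. For the change at 1 µM, 72 h minus 6 h, it was 1, which was Abcc2 itself. There it was 5 with the block and in both added block settings, and 2 without the arrays at recurring positions. Leaving out each rat in turn gave 0 to 1 at 1 µM and 12 h, 2 to 4 at 24 h (4 with all rats), 2 to 4 at 72 h (5 with all rats), 1 to 3 for 0.1 µM averaged, 3 to 5 for 10 µM averaged (4 with all rats) and 0 to 2 for the change at 72 h minus 6 h. Without the 2 doubtful arrays the 0 µM, 12 h group is 1 array. Leaving out a rat also leaves fewer arrays, and the cause of the other shifts was not tested. The block combined with leaving out either set of arrays was added after seeing the data. Of 26 single changes of transporters past the threshold, those of Abcc2 included, 488 values under alternatives were 434 times still past it and 54 times not, with none reversed. Of changes not past it, 85 values passed under an alternative.

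Counts over all genes moved more. With the rat as a block 74 genes were called at 1 µM and 2 h (33 without it) and 416 at 6 h (180). The later calls at 1 µM were 998 at 12 h (478 without it), 4405 after 24 h (2619) and 3564 after 72 h (2373). At 10 µM the block gave 1458 at 12 h (703) and 3021 at 24 h (1511), and at 0.1 µM and 72 h 2241 (780). Averaged over times it gave 166 at 0.01 µM (61) and 2509 at 0.1 µM (1263). It gave 1147 for 72 against 2 h at 0 µM (301) and 1423 for the change at 72 h minus 6 h (473). The block without the arrays of low signal gave 4270 at 10 µM and 72 h (2477). With only the arrays of the compared time there were 9 calls at 1 µM and 2 h, 259 at 12 h and 381 at 10 µM and 12 h. Without the 2 doubtful arrays there were 177 at 1 µM and 243 at 10 µM and 12 h. Without the arrays of low signal there were 1292 at 1 µM and 24 h and 1224 at 0.1 µM and 72 h, and without those at recurring positions 1413 at 1 µM and 24 h. For 72 against 2 h at 0 µM there were 1357 with no filter, 84 after quantile normalization, 42 after centring, 626 without the arrays of low signal and 750 without those at recurring positions. Averages over all times have no separate value with only the compared times. Groups of 2 to 4 arrays limit what can be called, and values under a log2 of 5 have no order.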
